A study of Drosophila melanogaster with 2 samples.

Results

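The genes beat-Ia, beat-Ib and beat-Ic are 3 of the 13968 protein-coding genes considered. They were described by the peaks called in and around them after immunoprecipitation of the CG31224-eGFP fusion protein. The members were chosen with earlier results of these data known, and every peak of the 8 deposited lists whose summit lay inside a gene or within 10 kb of either end was taken. The strong peaks for which the group was picked belonged to beat-Ib. In the main list beat-Ib had 10 summits, and beat-Ia and beat-Ic had 0 each, so the description of all 3 as genes with strong intronic peaks held for beat-Ib and went against the lists for its relatives. The genes were thus chosen by the signal of these peaks, and their counts and signals are given as a description, with no test.

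The assay was chromatin immunoprecipitation followed by sequencing with an antibody against GFP. The material was whole Drosophila melanogaster embryos aged 0 to 24 h from the transgenic strain CG31224-GFP, an insertion that targets CG31224, and 1 group of 2 biological replicates was made from that strain. No untagged, untreated or other-age group was used here, and the control library named for the experiment was not analysed here, so the background at these sites was not tested. The labels do not give the promoter or the cells in which the fusion is made. Sites used in few cells and sites weakly used in many cells cannot be told apart in whole embryos.

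CG31224 is a C2H2 zinc finger protein, a class in which many members bind DNA. The beat genes, named after beaten path, encode cell surface or secreted proteins of the immunoglobulin superfamily that are known in fly embryos from the steering of motor axons and the choice of synaptic partners. Beat-Ia, released by motor axons, acts where axons leave the nerve to enter their muscle field, and sidestep (side) encodes the muscle surface protein that Beat-I proteins bind. Other Beat and Side proteins pair in similar ways between neurons and their partners.

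All 3 genes lie on chromosome arm 2L (dm6). beat-Ib (FBgn0028645) spans chr2L:15905134-15962435 on the minus strand, 57.3 kb with 7 exons. beat-Ic (FBgn0028644) spans chr2L:16000291-16041703 on the plus strand, 41.4 kb with 8 exons. beat-Ia (FBgn0013433) spans chr2L:16049965-16081684 on the plus strand, 31.7 kb with 8 exons. BicC, which encodes an RNA-binding protein of the female germ line, and CG45084, at the same coordinates, lie between beat-Ic and beat-Ia, and the 10 kb flanks of beat-Ic and beat-Ia overlap, so that 11 summits of the ranked list count for both. The genes share a layout: a long intron 2 of 31.1 kb in beat-Ib, 18.8 kb in beat-Ia and 18.1 kb in beat-Ic precedes an exon 3 of 212, 209 and 212 bp.

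The 10 main-list summits of beat-Ib lay in intron 2, in 5 intervals between chr2L:15908756-15914077, the end of the intron nearest to exon 3. They are numbered here 2 to 11 along the plus strand. Number 1 is a further summit of the conservative list. The DNA within 50 bp of 5 of them is printed next, because these are 4 strong sites with a match to the matrix described further on and 1 without. It is the plus strand of dm6, read from the RefSeq copy of the assembly. Summit 7 is at chr2L:15911692-15911792, summit 2 at chr2L:15909123-15909223, summit 3 at chr2L:15909902-15910002, summit 11 at chr2L:15913842-15913942 and summit 8 at chr2L:15912584-15912684. Capitals mark the best match to that weight matrix of 16 positions, which was learned on other chromosome arms. In summit 3 the match reads on the minus strand, and summit 8 has none.
summit 7: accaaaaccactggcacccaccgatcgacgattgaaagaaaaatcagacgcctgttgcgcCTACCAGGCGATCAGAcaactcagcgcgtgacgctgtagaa
summit 2: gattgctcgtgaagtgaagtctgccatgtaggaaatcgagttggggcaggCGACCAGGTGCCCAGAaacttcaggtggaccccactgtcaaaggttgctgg
summit 3: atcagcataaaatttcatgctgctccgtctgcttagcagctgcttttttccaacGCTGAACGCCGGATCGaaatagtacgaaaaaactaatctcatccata
summit 11: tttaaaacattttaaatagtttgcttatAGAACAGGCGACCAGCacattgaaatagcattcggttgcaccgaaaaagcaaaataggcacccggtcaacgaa
summit 8: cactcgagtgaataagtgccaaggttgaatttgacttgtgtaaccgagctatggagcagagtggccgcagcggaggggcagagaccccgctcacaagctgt

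The main list was made from both replicates and holds 3810 summits on the 7 chromosomes used. Each is past an irreproducible discovery rate (IDR) of 1%, which is a deposited IDR score of 830. The IDR measures how well the ranks of a peak match between peak calls, and which calls were compared was not examined here. The lists of single replicates carry the score too, so by itself it does not show that both replicates hold a peak. The deposited signal value of a peak is a score of unstated scale. Its median over the main list was 89.1 and its maximum 4550. Read depth per replicate is unknown, and peaks of 1 library are not replicates, so errors are given as the spread between the 2 replicates.

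The strongest peak of beat-Ib, summit 7 at position 15911742, had a signal of 2526 in the main list, 1404 in replicate 1 and 1039 in replicate 2. It was 11th of all main-list summits by signal, 9th in the thresholded list of replicate 1 and 12th in that of replicate 2, so its place was close to the top in both. The mean of the replicates was 1221 ± 258 (SD, n = 2). It lay 51 bp downstream of the transcription start site (TSS) of lncRNA:CR44867, a 372 bp non-coding gene nested in the intron on the opposite strand to beat-Ib. Summit 2, at 15909173, had 1547 in the main list, 820 in replicate 1 and 684 in replicate 2. Summit 3, at 15909952, had 1379, with 739 in replicate 1 and 678 in replicate 2. These 2 summits were 25th and 30th by signal, and both lay over 500 bp from any TSS, in a stretch with no annotated gene other than beat-Ib.

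The middle range held 5 summits. Summit 6, at 15911029, had a main-list signal of 566, with 356 in replicate 1 and 285 in replicate 2. Summit 11, at 15913892, had 435, with 234 in replicate 1 and 207 in replicate 2. Summit 8, at 15912634, had 375, with 227 in replicate 1 and 137 in replicate 2. Summit 8 lay 76 bp downstream of the TSS of lncRNA:CR44868, the second non-coding gene nested there, and is the one of these for which the replicates stood furthest apart. Summit 10, at 15913604, had 341 in the main list and 202 in replicate 1, where the nearest summit lay 91 bp away, and the thresholded list of replicate 2 did not hold it. Summit 4, at 15910152, had 258 in the main list and 93.5 in replicate 2, and replicate 1 did not call it. Both of these share an interval with a stronger summit, 11 for summit 10 and 3 for summit 4.

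The remaining summits were weaker. Summit 9, at 15912835 and 277 bp from the same TSS as summit 8, had 210, with 123 in replicate 1 and 106 in replicate 2. Summit 5, at 15910372, had 72.5 in the main list, the lowest of the 10 and below the median of the list, with 87.8 in replicate 1 and 62.1 in replicate 2. Each replicate's thresholded list thus held 9 of the summits, and 8 were in both. Of the 10 summits, 3 were among the 30 strongest of the main list and 7 among the 300 strongest. Genes with at least 1 of the 300 strongest summits inside or within 10 kb made up 7.47% of protein-coding genes.

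**Figure D1:**
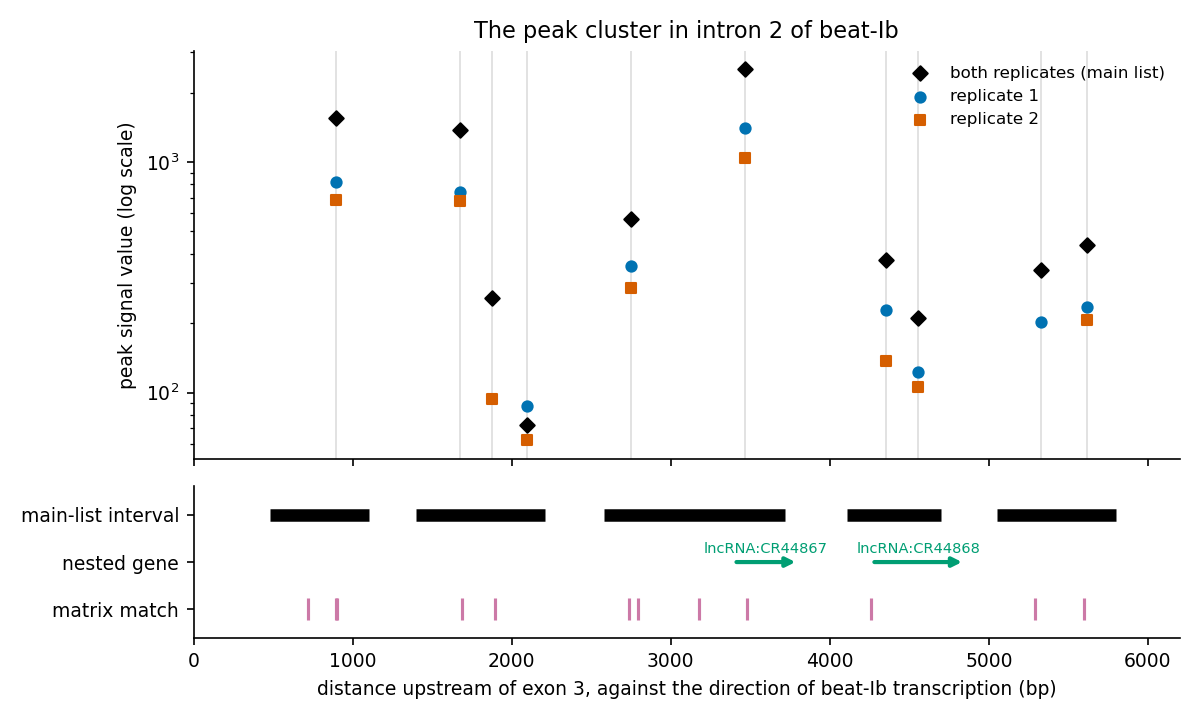
Signal value (log scale) of each main-list summit of beat-Ib against its distance upstream of exon 3 in bp. Diamonds are the main list, circles replicate 1 and squares replicate 2, and the lower panel gives the 5 main-list intervals, the 2 nested non-coding genes and the matches of the weight matrix. The summits run from 72.5 to 2526 and replicate 1 is above replicate 2 at each of the 8 summits that both lists hold.

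Replicate 1 had the higher value at all 8 shared summits of beat-Ib. The log2 ratio of replicate 1 to replicate 2 ran from 0.12 at summit 3 to 0.73 at summit 8, with a median of 0.29. At the strongest, summit 7, it was 0.43. Over all 1779 summits that lay within 100 bp of each other in both thresholded lists the median ratio was -0.05 with an SD of 0.44, and it was above 0 in 45.5%. That background includes weaker peaks: replicate 1's thresholded list had a median signal of 62.9, beside 234 for its beat-Ib summits. Replicate 1 also had the higher strongest intronic value at all 5 genes most like beat-Ib, given further on. These ran from 1597 against 1219 at Tlk to 434 against 299 at ush. DIP-iota went the other way, with 853 against 881. The excess of replicate 1 was thus not particular to beat-Ib, and whether it goes with strength was not tested. The 8 values of beat-Ib come from the same libraries and the same 5.32 kb, so they are not 8 independent measurements.

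**Figure D2:**
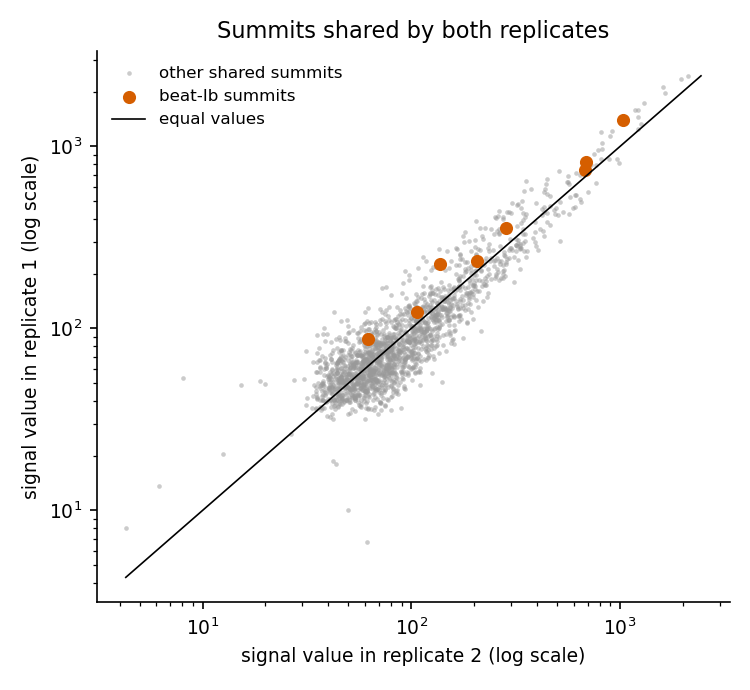
Signal value in replicate 1 against replicate 2 (both log scales) for 1779 summits within 100 bp of each other in both thresholded lists. The 8 summits of beat-Ib (large points) lie above the line of equal values, among the other shared summits (small points).

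The main-list value was close to the sum of the replicates' values at most of these summits. It was 1.03 times that sum at summit 7, 0.973 times at summit 3 and 0.883 times at summit 6. Summit 5 departed from this, with 0.484 times the sum: its value in the list of both replicates was lower than that in replicate 1 alone. It shares an interval of 809 bp with summits 3 and 4, and the part of this in its value was not tested.

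The intervals of beat-Ib were wide and held several summits. They measured 595 to 1138 bp against a median of 336 bp in the main list, where 0.713% of intervals were as wide as the narrowest of them. In the whole main list 18 of 3785 intervals held more than 1 summit and 4 held 3 or more, and beat-Ib had 4 of the 18. The 5 intervals covered 3921 bp, or 73.7% of the 5.32 kb from the first to the last, which is 9.29% of the gene. Neighbouring summits were 200 to 892 bp apart. Chromatin was sheared to 200 to 800 bp per the labels, so 1 fragment can reach from one summit to the next except across the widest gap, of 892 bp. The 10 values are thus not separate measurements of 10 sites.

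The cluster began 478 bp before exon 3 and ended 5799 bp before it. Within 500 bp of a TSS lay 3 summits, all at the non-coding genes lncRNA:CR44867 and lncRNA:CR44868, and 0 lay that near to a coding TSS. The other 7 lay over 500 bp from any TSS. The TSS of beat-Ib itself was 50693 bp from summit 7. The coding genes nested further up the same intron, CG13244 and CG4793, had 0 main-list summits in their span. The same held for CG12448, CG18063 and lncRNA:CR43803, which are nested between intron 2 and the TSS of beat-Ib.

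The summits on either side of the threshold are ordered here by signal. The weakest inside it was summit 5, with a signal of 72.5 and an IDR score of 1000. The strongest outside it was summit 1, at 15908303 and 25 bp before exon 3. Summit 1 had 72.8 in the ranked list of both replicates, 41.3 in replicate 1 and 33.2 in replicate 2. Its IDR score was 523 in the ranked list and 1000 in the conservative ranked list, so the conservative list took it in and the main list left it out, with 11 summits in the first and 10 in the second. Below it came a peak of 49.1 upstream of beat-Ib and one of 47.4 downstream. The deposited threshold is set on the IDR and not on signal, so summit 1 stayed out of the main list with a signal slightly above that of summit 5.

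The relatives had no thresholded peak by any list. beat-Ia and beat-Ic had 0 summits in the main list, 0 in the conservative list and 0 in the thresholded list of each replicate. At least 1 main-list summit lay in or within 10 kb of 56% of protein-coding genes, and the corresponding shares were 54.9% in the conservative list, 43.2% in replicate 1 and 46.8% in replicate 2. Gene length was considered next. Of the 633 protein-coding genes at least as long as beat-Ia, 66.8% had 1 or more and 33.2% had none, so having none was common among genes of this size. The nearest main-list peaks outside the 3 genes were far off. To the left of beat-Ib the next was 143 kb away, near the TSS of Gli, which encodes a protein of glial and epithelial junctions, with a signal of 59.7. To the right of beat-Ia it was 151 kb away, near Ca-Ma2d, which encodes a calcium channel subunit, with 57.6.

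At the other end, 10 or more main-list summits in the gene or within 10 kb were found for 0.172% of protein-coding genes and for 1.74% of the 633 long ones. Inside the gene alone, 1 or more summits were found in 10.6% of genes and 10 or more in 0.0573%, which is 8 genes. These were Tlk and mam with 15 each, CHES-1-like with 14, CG1677, bun and shn with 12 each, kirre with 11 and beat-Ib with 10. Apart from beat-Ib they are named because they passed that count, after their values were seen. When summits up to 2 kb apart were joined into chains, 81.4% of 3022 chains held 1 summit and 15 held 5 or more. The chain of beat-Ib, with 10, came after 2 chains with more, of 17 and 11 summits. Counted by intervals it was not so near the top: it has 5, and 14 chains, its own included, have at least as many.

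**Figure D3:**
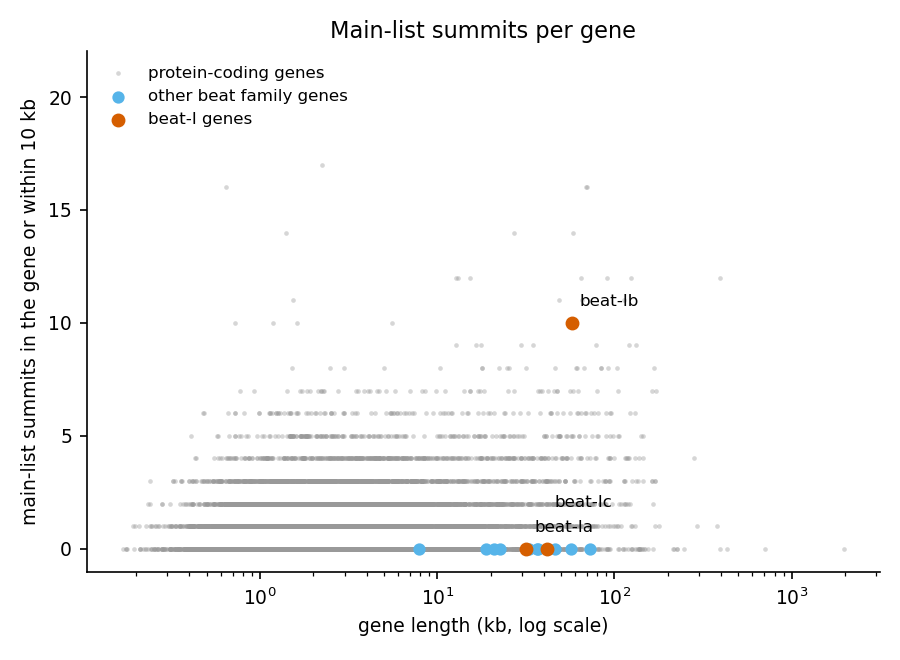
Number of main-list summits in each protein-coding gene or within 10 kb of it against gene length in kb (log scale). beat-Ib is at 10, and beat-Ia, beat-Ic and the 11 other beat family genes are at 0.

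Weaker peaks, which the deposited ranked lists keep without the IDR threshold, were present at all 3 genes. The ranked list of both replicates held 57 summits for beat-Ib, 45 for beat-Ia and 33 for beat-Ic, and beat-Ib had 47 outside the cluster. Per 10 kb these were 8.70 for beat-Ia, 5.37 for beat-Ic and 6.53 for beat-Ib outside the cluster, beside 7.19 over the 7 chromosomes. In replicate 1 the density was 4.64 for beat-Ia, 2.77 for beat-Ic and 3.06 for beat-Ib outside the cluster, with 4.24 overall. In replicate 2 it was 4.45, 3.75 and 3.75 in that order, with 4.35 overall. beat-Ia was thus slightly above the general density in each replicate, and beat-Ic and the rest of beat-Ib were below it. The value of beat-Ic includes its intron 2, where no list held a summit.

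Most ranked summits of 1 replicate had no partner in the other. For beat-Ia 8 of 24 in replicate 1 lay within 100 bp of one in replicate 2, for beat-Ic 5 of 17, and for beat-Ib outside the cluster 7 of 22. Over all chromosomes 32.1% recurred. Inside the cluster each replicate held 9 ranked summits, the same number as in its thresholded list.

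The strongest ranked peak of beat-Ic lay upstream of the gene at 15991477, 8814 bp before its start. It had a signal of 53.1 in the list of both replicates, 33.4 in replicate 1 and 17.2 in replicate 2. Its IDR score was 811 in the ranked list, just under the 830 of the threshold, and 344 in the conservative ranked list. The nearest annotated gene on that side is lncRNA:CR43412. The strongest ranked peak of beat-Ia, at 16041966, lay 7999 bp upstream of its start, just before the start of BicC and CG45084. It had 33.0 in the list of both replicates, 15.3 in replicate 1 and 15.0 in replicate 2, with an IDR score of 62. In this list neither relative had its strongest peak in its own intron 2.

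The strongest peak of beat-Ib had 76.6 times the signal of the strongest of beat-Ia in the ranked list of both replicates, where all 3 genes have peaks. Within replicate 1 the ratio was 69.9 and within replicate 2 it was 46.45. Against beat-Ic it was 47.5 in the list of both, 42.0 in replicate 1 and 47.9 in replicate 2. These ratios compare each gene's strongest value in a list. In replicates 1 and 2 it was 20.1 and 22.4 for beat-Ia and 33.4 and 21.7 for beat-Ic, so beat-Ib stood above both relatives in each replicate. The strongest peak of beat-Ia was a different one in the list of both and in each replicate. That of beat-Ic was another one in replicate 2. Since beat-Ib was picked for its signal, the ratios describe that choice.

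**Figure D4:**
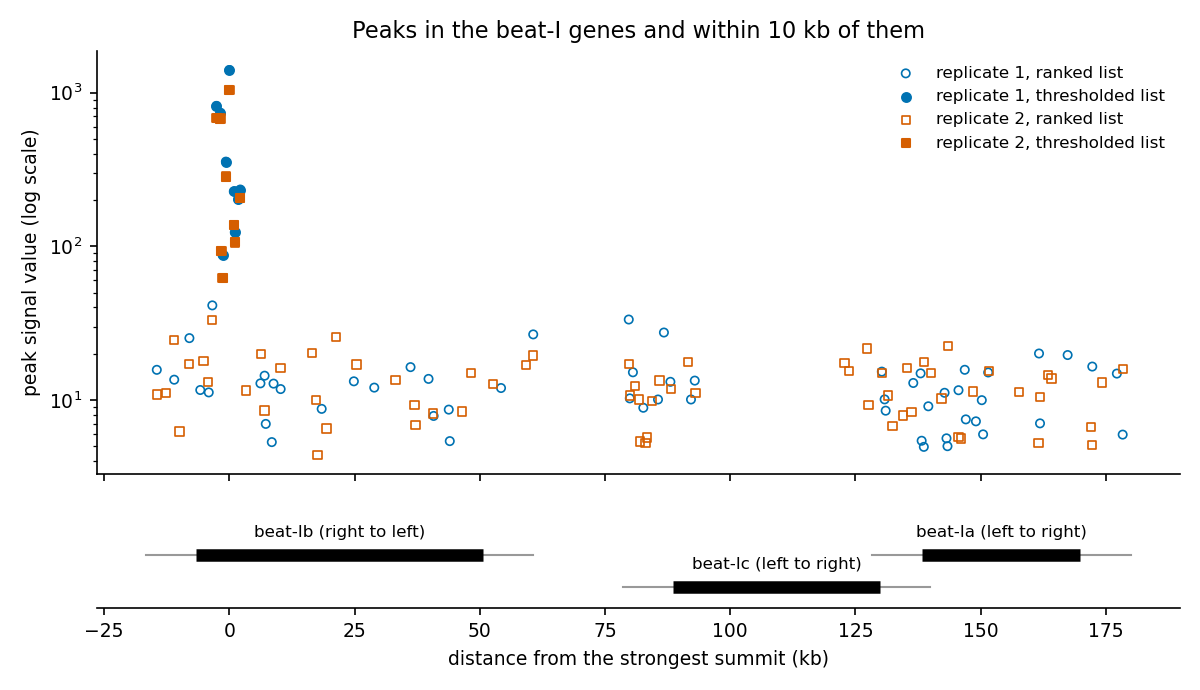
Signal value (log scale) of every peak of the replicates' lists in the 3 genes or within 10 kb of them against distance in kb from summit 7, with circles for replicate 1 and squares for replicate 2. Filled marks passed the IDR threshold and open marks are in the ranked list alone; the filled marks lie in 1 stretch of beat-Ib, and the genes (black bars) and their 10 kb flanks (grey lines) are drawn to scale.

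The same place in the relatives was compared next, since all 3 genes have a long intron 2 and an exon 3 of like length. The stretch from 478 to 5799 bp before exon 3 held 10 main-list summits in beat-Ib and 0 in either relative. In beat-Ic that stretch held 0 peaks in all 8 lists, and so did the whole of intron 2, all 18.1 kb of it. Over the 7 chromosomes the ranked list held 7.19 summits per 10 kb. Whether peaks could be called in this intron was not tested, so its 0 cannot be told from a stretch that yields no calls. In beat-Ia the stretch held 5 peaks of the ranked list. Of these the strongest, with 26.0 at 16073408, lay in lncRNA:CR44870, a non-coding gene nested at that place. It had 20.1 in replicate 1, and the strongest of the stretch in replicate 2, with 11.3, lay elsewhere, at 16069353. beat-Ib has 2 nested non-coding genes in this stretch and beat-Ia has a different one, and in the list of both replicates the strongest signal was 2526 at lncRNA:CR44867 and 26.0 at lncRNA:CR44870.

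Copies of the cluster's DNA were sought in the genome. A search of the 5 intervals against the assembly with blastn, at an expectation value of 1e-05, returned each interval once as itself, with 1 further hit of 50 bp for the widest interval. No interval matched another interval of the cluster, and 0 hits fell in the loci of beat-Ia or beat-Ic. The share of G and C within 50 bp had a median of 51.5% over the 10 summits, with a range of 34.7% to 55.4%, and a median of 34.7% over the main list and 36.6% over its 300 strongest summits.

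A short word was sought that peaks share. The 8-base word with the largest excess at main-list summits over their flanks, learned from 1264 peaks on 3L, 3R and X that lie over 500 bp from a TSS, was AAAAATAT on either strand. It was held by 6.3% of main-list summits within 50 bp, by 3.04% of flanks, and by 0 of the 10 of beat-Ib. Since that word is a run of A and T, the 100 strongest of those peaks were used as an alternative chosen after seeing the data. They gave ACCAGGCG, which 0.787% of main-list summits, 0.157% of flanks and 1 of the 10 summits of beat-Ib held. That one is summit 7, the strongest. For both words, the shares of main-list summits and flanks include the peaks from which the word was learned.

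A weight matrix of 16 positions grown from 37 sites around that word, with CAGGCG at positions 5 to 10 and CAG at positions 13 to 15 as its most frequent letters there, matched more of the cluster. It was found on either strand at 6.17% of main-list summits and 2.44% of flanks, and at 7 of the 10 summits of beat-Ib, which lies on an arm that was not used to learn it. The 7 matches are printed here in the direction of the matrix, with summits 3, 6 and 10 read on the minus strand, so that they can be compared. All 7 have the same base at 4 positions, counted from 1 at the left end of the matrix: G at 7 and 8, C at 13 and A at 14. These are among the letters that the matrix weights most, so the matches were kept for them and the sharing is no finding. Capitals mark the whole match.
summit 7: CTACCAGGCGATCAGA
summit 2: CGACCAGGTGCCCAGA
summit 3: CGATCCGGCGTTCAGC
summit 6: GTAACAGGCCAACATA
summit 11: AGAACAGGCGACCAGC
summit 10: CGAATAGGCGAGCAGC
summit 4: TGGCCAGGCCAACAGA

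Among the 300 strongest main-list summits on 2L and 2R, leaving beat-Ib out, the matrix was found at 40 of 135, or 29.6%, and at 7.41% of their flanks. Matches were dense in the cluster and sparse around it. The locus of beat-Ib with its flanks held 19, of which 12 lay in the stretch of 5.32 kb, or 22.5 per 10 kb. Of these, 9 lay within 50 bp of a main-list summit, at 7 summits. Overlapping matches were counted apart: those centred at 15909173 and 15909181, both at summit 2, share bases. The rest of the beat-Ib window held 7, or 0.972 per 10 kb, beside 2.22 per 10 kb over the whole of 2L. beat-Ia had 9 matches, 1.74 per 10 kb, and beat-Ic had 9, 1.47 per 10 kb, and each had 0 in the stretch before exon 3. The 3 summits of beat-Ib without a match were 5, 8 and 9. Summit 9 scored 8.42, close under the 9.62 that counts as a match, while summits 5 and 8 scored 2.90 and 4.81. Summits 8 and 9 were the 2 near the TSS of lncRNA:CR44868, and 5 was the weakest. The matrix is rich in G and C, as the cluster is, and the part of base composition in these counts was not tested.

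The other genes of the family were set beside the 3. Of 14 beat genes, 1 had a main-list summit in the gene or within 10 kb, and that gene was beat-Ib. This is 7.14%, beside 56% of all protein-coding genes and 66.8% of those at least as long as beat-Ia. The median length of the 14 was 36.9 kb. The other 13 had 0 in each of the 4 thresholded lists. Their strongest peaks in the ranked list of both replicates ran from 27.9 at beat-IIIb through a median of 37.9 to 53.1 at beat-Ic. In replicate 1 the strongest values of the 13 ran from 15.9 to 34.4, with a median of 20.8, beside 1404 for beat-Ib. In replicate 2 they ran from 18.9 to 32.2, with a median of 24.7, beside 1039. No replicate brought any of the 13 near beat-Ib. Next to beat-Ic came beat-IIb with 51.9 and beat-IIIc with 51.6 in the list of both replicates. The strongest values in replicates 1 and 2 were 23.2 and 29.7 for beat-IIb, and 34.4 and 28.3 for beat-IIIc. These can come from other sites than the peaks of 51.9 and 51.6, so they give no error for those peaks. The IDR score at the strongest peak of beat-IIIc was 791, also just under the threshold.

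**Figure D5:**
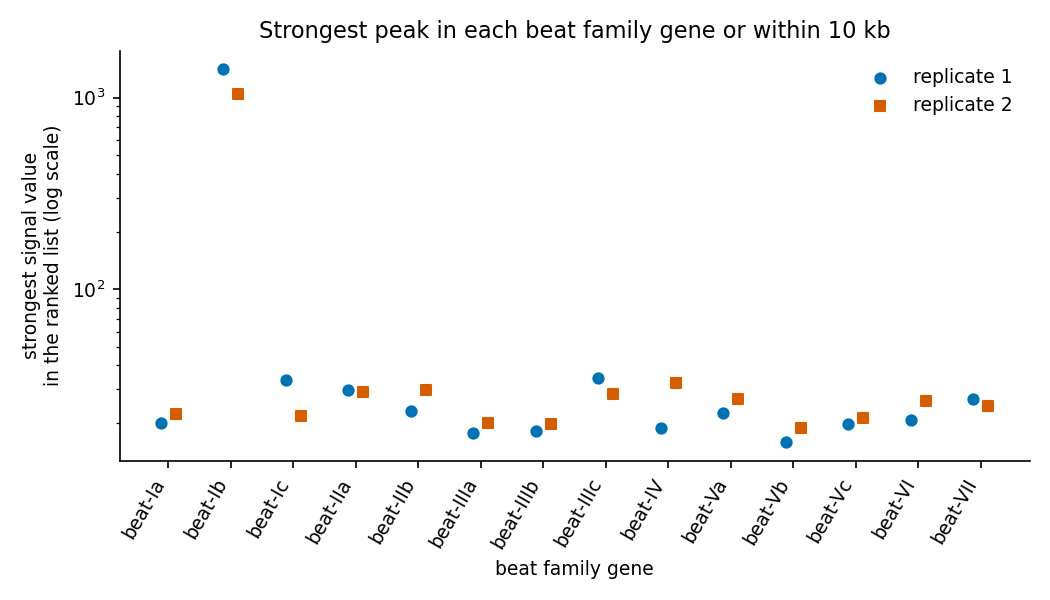
Strongest signal value (log scale) in the ranked list of each replicate for each of the 14 beat family genes or within 10 kb of it. beat-Ib is at 1404 and 1039, and the other 13 genes lie between 15.9 and 34.4 in both replicates.

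The side genes encode partners of the Beat proteins. Of 8 side genes, 4 had a main-list summit, or 50%, beside 56% of all genes and 66.8% of those at least as long as beat-Ia. The median length of the 8 was 58.5 kb. The median of the strongest signals of the 4 was 109. The gene side, whose protein binds Beat-I proteins on the muscle surface, had a summit inside it with 164 in the main list, 57.7 in replicate 1 and 104 in replicate 2. side-IV, whose protein binds Beat-II proteins, had 146, with 74.3 in replicate 1 and 72.2 in replicate 2. side-V had 71.8 and side-III 65.9 in the main list, and the peak of side-III was outside the gene, with 38.7 in replicate 1 and no peak in the thresholded list of replicate 2. The strongest peak of side-V was in neither replicate's thresholded list. Even the highest of these main-list signals, at side, was below 9 of the 10 summits of beat-Ib. side-II, side-VI, side-VII and side-VIII had 0.

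Among 35 further genes of axon guidance, 25 had a main-list summit, or 71.4%. Their median length was 39.0 kb, more than the 31.7 kb of beat-Ia, and the share among all genes at least as long as beat-Ia was 66.8%, so the share of the list was near its background. The highest 4 were NetA, which encodes a netrin, with 799, dlp, a glypican, with 512, Dscam1, an immunoglobulin superfamily receptor of many isoforms, with 355, and Fas2, the adhesion molecule that holds motor axons together, with 283. The strongest peaks of NetA and Fas2 lay outside those genes, and each gene had 2 of its 4 main-list summits inside. Of 32 dpr and DIP genes, which encode immunoglobulin superfamily proteins of synaptic partners, 7 had one. This is 21.9%, beside 56% of all protein-coding genes and 66.8% of those at least as long as beat-Ia. The median length of the 32 was 32.5 kb. DIP-iota had 1738 in the main list, with 853 in replicate 1 and 881 in replicate 2, and dpr17 with 278, dpr14 with 169 and dpr19 with 137 followed. These strongest summits all lay outside the 4 genes. The genes of the lists were chosen with results known, so these counts support nothing by themselves.

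The genes whose intronic peaks were most like those of beat-Ib were found among 445 protein-coding genes that have an intronic summit over 500 bp from a TSS in both replicates' lists. Likeness was the Euclidean distance over 4 standardised log2 measures: the number of such summits plus 1, the strongest signal in replicate 1, that in replicate 2, and gene length. beat-Ib has 7 such summits and 820 and 684 as its strongest values. The nearest was pdm3, a gene of 68.8 kb for a POU domain protein of neurons, at a distance of 1.15, with 6 summits and values of 466 and 434 in replicates 1 and 2. Next came ush, for a zinc finger cofactor of GATA factors, at 1.60, with 6 summits and 434 and 299. CG6191 followed at 1.69 and CG45088 at 1.71, which overlap and share the same 5 summits, with 711 and 617. Tlk, for the Tousled-like kinase, came last of the 5 at 1.75, with 12 summits and 1597 and 1219. beat-Ib lay between CG6191 and Tlk by its strongest intronic signal in both replicates.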

How the data were processed

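Peak lists of 2 biological replicates in 1 group were used. Per the deposited description files the lists are in dm6 and derive from alignments of the replicates and a control; neither aligner nor peak caller is named in these sources. The authors deposited for each peak a summit, a signal score, an IDR score and, in the ranked lists, the −log10 of the IDR, which was used here only to check the score. The lists are a thresholded and a ranked one per replicate and for both together, with conservative versions of the latter. The main list is the thresholded one of both replicates that is not conservative. Read depth is unknown.

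Peaks on 7 chromosomes were kept, 3810 of 3815 in the main list. Summits were placed in genes of Ensembl release 115 (BDGP6.54), with sequence from the RefSeq copy of Release 6, the same assembly as dm6. Coordinates are 1-based. A replicate's value is that of its summit within 100 bp. Words were counted within 50 bp of summits and in windows 300 bp to each side, and a matrix match is a score above the 95th percentile of the flanks of the learned peaks, refined for 3 rounds. blastn 2.17.0 and Python 3.11.15 with numpy 2.4.6 and pandas 2.3.3 were used. The search for words was tested on simulated data.

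The members and gene lists were chosen with earlier results of these data known. Named are the 3 genes, genes at their peaks, their neighbours, beat and side genes (with values where they have peaks), up to 4 further members per list, and the 5 genes most like beat-Ib. Outside that rule, genes with 10 or more summits inside were named after their values were seen. With 1 group no test between groups was made. Where the relatives had no thresholded peak, the ranked lists gave their strongest value.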

Additional observations from a re-analysis of the deposited data

How the results depend on the processing

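The counts of main-list summits, 10 at beat-Ib and 0 at each relative, changed with the list and not with the distance. In the ranked list of both replicates they were 57 at beat-Ib, 45 at beat-Ia and 33 at beat-Ic, since that list has no threshold. Counted as distinct intervals, an alternative chosen after seeing the data, beat-Ib had 5. Leaving out each replicate in turn gave 9 at beat-Ib and 0 at beat-Ia and beat-Ic. It also gave 1 of 14 beat genes and 3 of 8 side genes with either replicate, 21 to 23 axon guidance genes and 5 to 7 dpr and DIP genes. Above the median signal 2 side genes remained with a peak, and inside the gene alone 3 dpr and DIP genes had one. The ratio of the strongest signals of beat-Ib and beat-Ia ran from 46.45 to 69.93 on leaving out each replicate, below the 76.6 of the list of both. Against beat-Ic it ran from 42.03 to 47.91. The strongest peak of beat-Ia was at 16041966 in the list of both, 16073409 in replicate 1 and 16055178 in replicate 2. Its ratios thus do not follow a single site, and the part of this in their spread was not tested. The count of beat-Ib summits with a learned word was 0 with the first word, 1 with the word of the conservative list, 1 with that of the 100 strongest peaks and 7 with the weight matrix, the last 2 chosen after seeing the data. The log2 ratio of the replicates had no value for beat-Ia and beat-Ic in the thresholded lists. In the ranked lists it was 0.03 and 0.96. No paired analysis was possible because the study has 1 group. With depth unknown, a peak absent from a list is not shown to be absent from the embryos.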
